A study of Homo sapiens with 10 samples.

Results

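The genes described here are 10 heat shock chaperones and co-chaperones of human cells: HSPA1A, HSPA1B, HSPA8, HSPA6, HSP90AA1, HSPH1, DNAJB1, BAG3, HSPB1 and HSPD1. They were taken by gene symbol from the long RNA count tables, 10 of 55771 symbols. BEAS-2B is an immortalised human bronchial epithelial cell line, and stable lines of it had been made with an empty pCMV6 vector or with a pCMV6 vector for TAF1C, a subunit of the factor SL1 that brings RNA polymerase I to ribosomal RNA genes. All lines were grown in LHC9 medium with 10% serum and kept under G418 selection. The long RNA libraries were 2 from empty vector cells, called controls below, and 3 from TAF1C cells, and no heat or other protein-damaging treatment is named in the labels. The labels do not say whether replicates were separate cultures or whether a line was 1 clone, and a p below therefore speaks for the spread among these libraries only.

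Chaperones hold unfolded proteins and help them reach or regain their shape. When unfolded proteins accumulate, the transcription factor HSF1 forms trimers that bind heat shock elements, runs of the unit GAA in alternating orientation, and chaperone genes are transcribed. Some members, such as HSPA8, HSP90AA1 and HSPD1, are also made at high levels without stress, whereas HSPA6, HSPA1A and HSPA1B are known mainly for their induction. Tumour cells are known to depend on several of these proteins, since they stabilise signalling proteins and growth regulators.

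The heat shock elements of the members are shown first, because they are the sequence feature that links these genes to HSF1. RefSeq promoter windows of GRCh38.p14, 250 bases before to 50 bases after an annotated start, were found for all 10 members, 14 windows in all. They were searched on both strands for 3 units in a row (GAA, any 2 bases, TTC, any 2 bases and GAA, or its reverse complement) and for 2 units (GAANNTTC or TTCNNGAA, which also occur inside the longer element). The 3-unit element stood in 4 of the 14 windows, those of HSPA8, HSPA6, HSP90AA1 and HSPD1, and in 172 of all 35116 windows, or 0.490%. A 2-unit match, inside a longer element or not, stood in 9 of the 14 windows and in 13.5% of all windows. HSPA1A, HSPA1B, DNAJB1 and HSPB1 had the 2-unit element without the longer one, and for HSPH1 and BAG3 neither set of letters was in the window. In the lines below the capitals mark the element, and each sequence is read on the strand of its gene.
HSPA8, 55 bases before the start, chr11:123062173-123062197, minus strand: ggccccTTCTGGAAGGTTCtaagat
HSPA8, 230 bases before the start, chr11:123062348-123062372, minus strand: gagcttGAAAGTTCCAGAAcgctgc
HSPA6, 74 bases before the start, chr1:161524460-161524484, plus strand: gaaaggTTCGCGAAAGTTCgcggcg
HSP90AA1, 88 bases before the start, chr14:102087114-102087138, minus strand: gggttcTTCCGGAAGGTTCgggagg
HSPD1, 245 bases before the start, chr2:197500062-197500090, minus strand: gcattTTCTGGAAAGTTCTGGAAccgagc
DNAJB1, 77 bases before the start, chr19:14518461-14518480, minus strand: ggggcgGAAGGTTCtggagg
DNAJB1, 47 bases before the start, chr19:14518431-14518450, minus strand: gctctgGAAGCTTCcgccgg
HSPB1, 182 bases before the start, chr7:76302485-76302504, plus strand: acgagaGAAGGTTCcagatg
HSPA1A, 106 bases before the start, chr6:31815431-31815450, plus strand: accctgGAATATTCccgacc
HSPA1B, 105 bases before the start, chr6:31827627-31827646, plus strand: cccctgGAATATTCccgacc
These distances run from the first capital to the annotated start. The HSP90AA1, DNAJB1 and HSPD1 lines come from the 2nd of 2, 3 and 2 windows of these genes. Further 2-unit elements of HSPA6, HSP90AA1 and DNAJB1 are not printed. The HSPD1 line lies inside the gene as its other start defines it. A match is a description of the letters, and binding was not measured.

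The libraries differed in ways that touch every value below. They held 22809601 and 28476151 counts in the controls and 34212883 to 37533366 in the libraries labelled TAF1C. Values are given as CPM, counts scaled to a common library size with TMM factors. The TAF1C transcript averaged 71.1 ± 9.40 CPM in the controls (SD, n = 2) against 63.3 ± 4.08 CPM under the TAF1C label (SD, n = 3; edgeR adjusted p = 0.353). Its log2 fold change was -0.17, and from -0.38 to -0.057 over 13 fits with this one among them. With library totals it was called lower (-0.38, edgeR adjusted p = 0.0316), where 5021 of all genes were lowered. Since the targeted transcript was not higher, the groups are named by their labels. Of 8 tested epithelial markers, KRT7, KRT8, KRT18 and LAMB3 rose under the TAF1C label and ITGB4 fell, with CDH1 at 0.588 to 1.45 CPM there. EPCAM was called lowered too, at 14.7 and 1.10 CPM in the controls and at most 0.433 CPM under the TAF1C label, but it reached the test only through the controls. The summed CPM of 10 epithelial markers was 382 and 394 in the controls and 1380 to 1496 under the TAF1C label, and that of 6 mesenchymal markers 507 and 658 against 2849 to 2906. Under the TAF1C label KRT7 alone gave 967 to 1062 CPM of the epithelial sum, and FN1 alone 2417 to 2460 CPM of the mesenchymal sum. Of the 6 mesenchymal markers, VIM and FN1 rose, ZEB1 fell, and CDH2, COL1A1 and COL1A2 did not pass. A list of 19 photoreceptor markers, genes not typical of bronchial cells and listed with earlier results known, summed to 2059 and 2819 CPM in the controls and to 13.8 to 20.1 CPM in the others. Sums of 5 haematopoietic markers were 37.1 and 50.5 against 30.1 to 34.4 CPM. Of 2 endothelial markers, CDH5 and VWF, the sums were 47.7 CPM in control replicate 1 and 3.94 to 5.84 CPM elsewhere. The SD of the log2 difference over genes was 1.08 between the controls and 0.383 to 0.416 between pairs of libraries labelled TAF1C. The part of these differences in the results below was not tested.

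The comparison asked which transcripts differed between the libraries labelled TAF1C and those labelled empty vector. Whether a difference came from the vector was not tested. Of the 10 members, 8 had at least 1 CPM in at least 2 libraries and were tested. BAG3, HSPH1, HSPA8 and DNAJB1 rose, by 3.26-fold, 2.21-fold, 1.99-fold and 1.51-fold in mean CPM. HSP90AA1, HSPD1, HSPB1 and HSPA6 did not pass the test, and HSPA1A and HSPA1B had almost no counts. In the same test (edgeR quasi-likelihood, Benjamini-Hochberg over 18402 genes, adjusted p under 0.05), 15.9% of all genes were raised and 22.6% were lowered. In 6 of the 8, every library labelled TAF1C lay above both controls, an order that 29.8% of all tested genes showed. The members' median log2 fold change was 0.76, beside -0.10 over all tested genes. It was 0.36 beside 0.22 with quantile normalization, where 3 members were raised beside 23.4% of all genes. Without control replicate 1 it was 0.61 beside -0.00028, and without control replicate 2 it was 1.36 beside -0.025. In all, the 10 genes held 0.341% and 0.467% of the counts of the controls and 0.628%, 0.682% and 0.632% of those labelled TAF1C. Most of this came from HSP90AA1 and HSPA8, which together held 0.264% and 0.354%, and 0.482%, 0.530% and 0.485%.

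**Figure D1:**
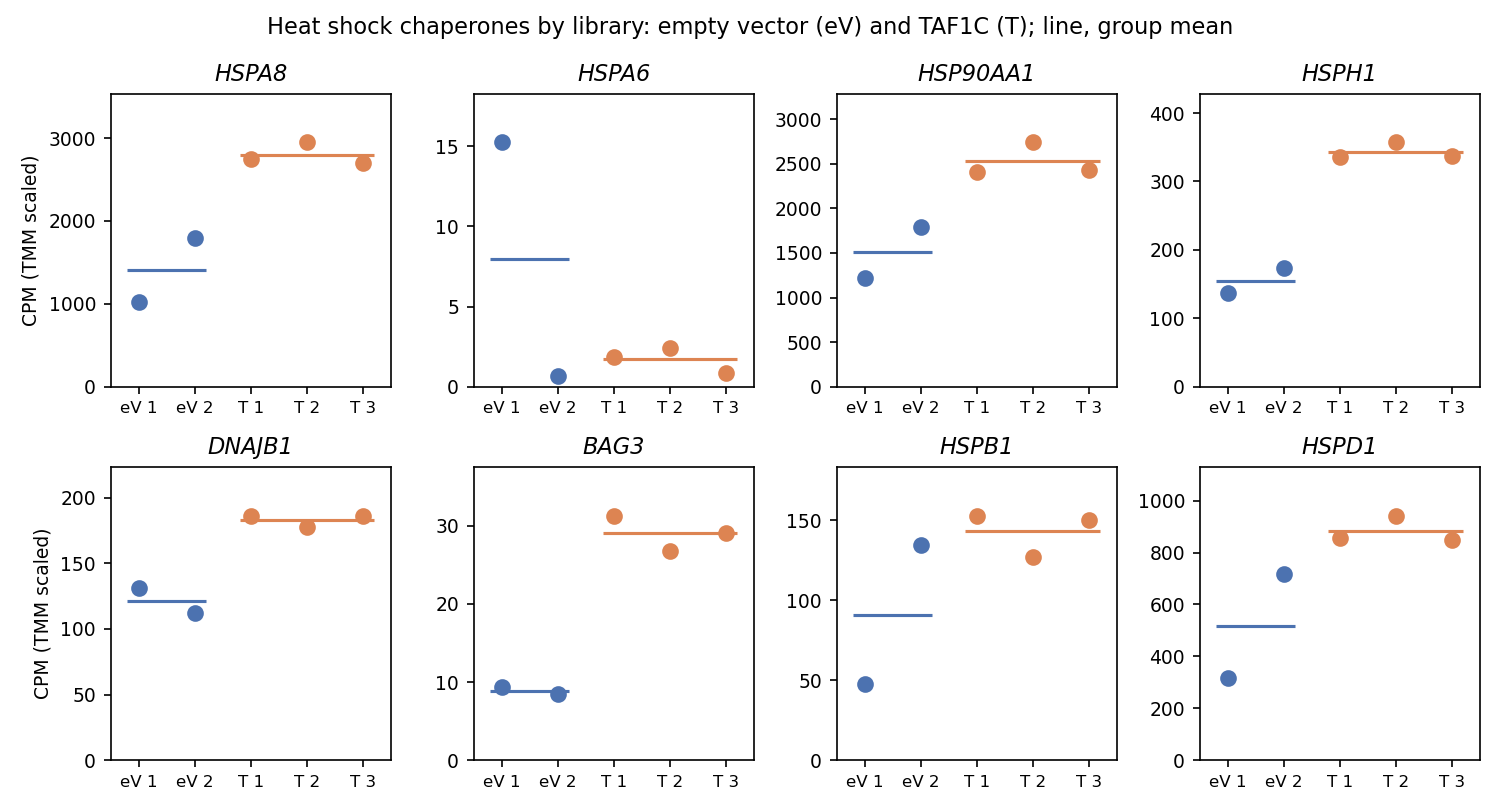
Normalised read counts (CPM, TMM scaled, y axes from 0) of the 8 tested members in each library; points are the empty vector (blue) and TAF1C-labelled (orange) libraries and lines are group means. All points labelled TAF1C lie above both control points for 6 members, and HSPA6 is high in control replicate 1 alone.

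HSPA8, the constitutive cytosolic HSP70 that folds new proteins and uncoats vesicles, was at 1020 and 1789 CPM in the controls. It was at 2750, 2949 and 2702 CPM in the libraries labelled TAF1C. Every library labelled TAF1C was above both controls. The log2 fold change was 0.996 ± 0.29 (SE; edgeR adjusted p = 0.0420). The controls were 1.75-fold apart from each other, and against replicate 1 alone the log2 fold change was 1.42, against 0.58 for replicate 2. With quantile normalization it was 0.35 (limma adjusted p = 0.0166). With 1 library labelled TAF1C left out the call was lost (edgeR adjusted p = 0.142 without replicate 1, 0.154 without replicate 2 and 0.143 without replicate 3). HSPA8 carries C/D box snoRNAs in its introns. Of these SNORD14E was at 1.34 and 2.13 CPM and at 3.48, 3.94 and 4.36 CPM (log2 fold change 1.18 ± 0.34 (SE), edgeR adjusted p = 0.0414), while SNORD14C and SNORD14D were at 0 in every library. The SNORD14E call was lost without TAF1C replicate 1, 2 or 3 (edgeR adjusted p = 0.109, 0.129 and 0.146), and its log2 fold change was 0.81 and 1.52 without control replicate 1 or 2.

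HSPA6, an HSP70 known to be made almost only under strong stress, had the widest gap between the controls among the tested members. Its normalised read count was 15.2 CPM in control replicate 1 (410 counts) and 0.640 CPM in replicate 2 (18 counts), 23.8-fold apart. In the libraries labelled TAF1C it was at 1.82, 2.41 and 0.866 CPM, so the groups overlapped. The log2 fold change of -2.22 ± 1.13 (SE) did not pass (edgeR adjusted p = 0.172). Against replicate 1 alone it was -3.19, and against replicate 2 alone 1.34, where its counts are low. These fits hold no spread between controls, so only their effect sizes are given. Between the controls, 90% of tested genes differed by log2 values from -1.02 to 2.35 (replicate 1 against 2), and HSPA6 by 4.57. HSPA7, an adjacent near-identical pseudogene that can share its reads, had 33 counts in that library and 4 to 10 in the others, and the sum of both rows gave -2.13. Some genes of the chaperone lists were also highest there: the small heat shock protein CRYAB was at 4.79 CPM and at 0.249 to 0.588 CPM in the other libraries, and HSPA2, an HSP70 of testis, at 19.2 CPM and at 6.72 to 11.8 CPM. Others went the other way, and of the 8 tested members 5 were higher in control replicate 2 and 3 in replicate 1. Control replicate 1 also had more genes above 0 counts, 45285 against 36669 in replicate 2. The share of all genes highest in replicate 1 was not computed.

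HSPA1A and HSPA1B encode the main stress-inducible HSP70 and are near copies of each other on chromosome 6. HSPA1A had 1 and 0 counts in the controls and 1, 4 and 2 in those labelled TAF1C. HSPA1B had 0 in both controls and 7, 0 and 1 in the others. At these counts no change could be read in either gene. Their promoter windows were identical at 277 of 299 compared bases. The near absence of counts was not particular to them. Of the 50 protein-coding genes on either side, ordered by RefSeq, 53 of 100 had 0 counts in every library and 82 had at most 10 in any. Of the 887 other matched protein-coding genes of chromosome 6, 94 had at most 10. The stretch of genes that all stayed below 300 counts, a limit chosen after the values were seen, ran from GPX6 to PHF1 and held 165 genes, those of the major histocompatibility complex among them. Genes that nearly every cell transcribes were at 0 in all 5 libraries there, such as RPS18, a ribosomal protein, LSM2, an RNA-binding protein, and CLIC1, a chloride channel (named after their values were seen). The treatment of reads that match several places is among the steps not given in the sources used here. The values of HSPA1A, HSPA1B and their neighbour HSPA1L, at 0 throughout, therefore say nothing of their transcription. BAG6 and PFDN6, which belong to the lists below, lie in the same stretch and had 1 to 12 and 0 counts.

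**Figure D2:**
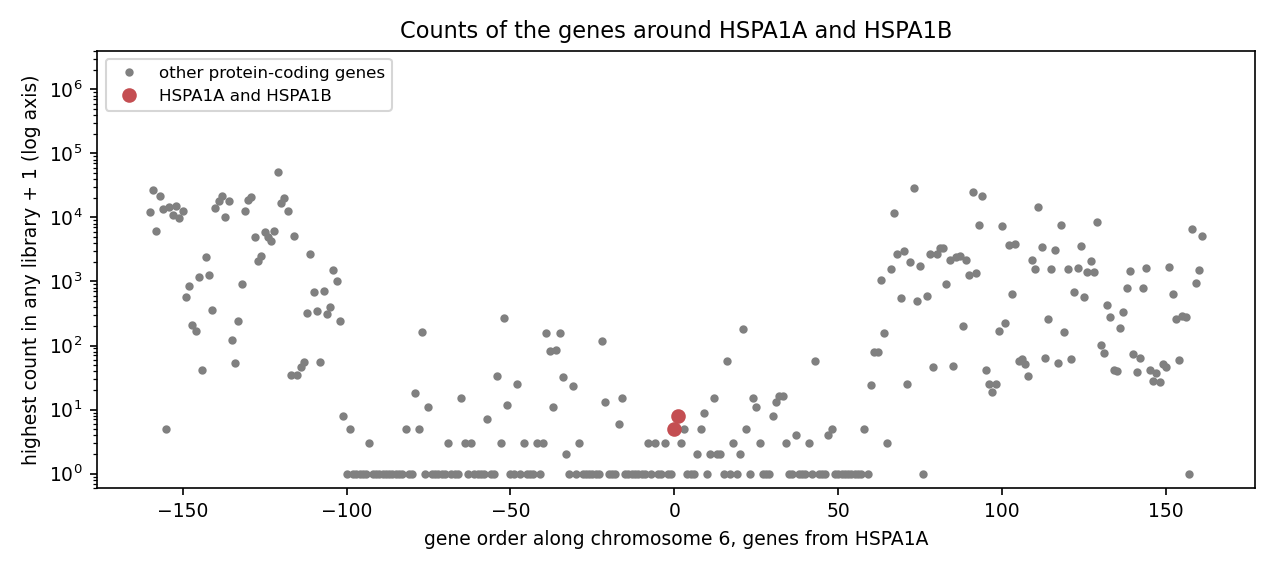
Highest count in any of the 5 libraries, plus 1 (log axis), for protein-coding genes in their order along chromosome 6, counted from HSPA1A. HSPA1A and HSPA1B (red) sit inside a stretch of 165 genes below 300 counts, bounded by ZSCAN23 (1030 counts) and CUTA (1052 counts).

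Of the partners that drive the HSP70 cycle, DNAJB1, the J protein that hands substrates to HSP70 and starts its ATPase, was at 131 and 112 CPM in the controls. The libraries labelled TAF1C had 186, 177 and 186 CPM, all above both. The log2 fold change of 0.59 ± 0.12 (SE) was the smallest of the 4 raised members (edgeR adjusted p = 0.0140). DNAJB1 and BAG3 were a little higher in control replicate 1 than in replicate 2, unlike HSPA8. The DNAJB1 call depended on the scaling. Its log2 fold change was 0.36 with library totals (edgeR adjusted p = 0.124), where 12.3% of all genes were raised. With quantile normalization it was 0.35 (limma adjusted p = 0.119), where 23.4% were raised. The call was also lost without TAF1C replicate 1, 2 or 3 (edgeR adjusted p = 0.0802, 0.0618 and 0.0797). In those fits 5.84%, 6.48% and 5.94% of all genes were raised, beside 15.9% in the full comparison. Over the 5 libraries, the genes nearest to DNAJB1 in centred log2 CPM, among 10331 others of at least 10 CPM, were EXOC3, WDR13 and IRF2, at Euclidean distances of 0.0454, 0.0497 and 0.04996.

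HSPH1, an HSP110 that releases ADP from HSP70 and helps pull apart aggregates, was at 137 and 174 CPM with the empty vector and at 336, 357 and 338 CPM under the TAF1C label. The groups lay well apart, and the log2 fold change was 1.15 ± 0.15 (SE; edgeR adjusted p = 0.00361). It passed under every alternative that held both controls, and its log2 fold change ran from 0.85 to 1.30 over all 14 alternatives. Summing copies or pseudogenes left its counts unchanged. BAG3, a nucleotide exchange factor that couples HSP70 and small heat shock proteins to autophagy, rose most among the members. BAG3 was at 9.40 and 8.42 CPM in the controls and at 31.3, 26.7 and 29.1 CPM in those labelled TAF1C. Its control values differed by 1.12-fold, less than those of any other tested member, and the log2 fold change was 1.70 ± 0.16 (SE; edgeR adjusted p = 0.00127). BAG3 passed under the same alternatives, with log2 fold changes from 1.47 to 2.22 over all 14, and its counts were likewise unchanged by the summing.

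HSP90AA1, the inducible cytosolic HSP90 that matures kinases and steroid receptors, was at 1218 and 1795 CPM in the controls. It reached 2413, 2741 and 2430 CPM in the libraries labelled TAF1C, again with no overlap. The log2 fold change of 0.75 ± 0.24 (SE) missed the threshold (edgeR adjusted p = 0.0562), while it passed with DESeq2 (0.80, adjusted p = 0.00406), where 20.0% of all genes were raised. It was 0.029 with quantile normalization (limma adjusted p = 0.810). Its constitutive sister HSP90AB1 was at 844 and 1660 CPM and at 1555, 1638 and 1602 CPM, within the span of the controls (log2 fold change 0.35 ± 0.31 (SE), edgeR adjusted p = 0.403). The ratio of HSP90AA1 to HSP90AB1 counts was 1.44 and 1.08 with the empty vector and 1.55, 1.67 and 1.52 in the libraries labelled TAF1C.

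HSPD1, the mitochondrial HSP60 chamber, was at 315 and 718 CPM in the controls and at 856, 942 and 847 CPM under the TAF1C label. The groups did not overlap, yet the controls were 2.28-fold apart and the log2 fold change of 0.77 ± 0.35 (SE) did not pass (edgeR adjusted p = 0.135). HSPE1 encodes the lid of that chamber and starts 105 bases from HSPD1 on the opposite strand. HSPE1 followed the same order, at 17.9 and 39.5 CPM and at 53.7, 62.5 and 55.7 CPM (log2 fold change 0.999 ± 0.33 (SE), edgeR adjusted p = 0.0610). The ratio of HSPD1 to HSPE1 counts was 17.6 and 18.2 in the controls and 15.9, 15.1 and 15.2 in the libraries labelled TAF1C. HSPD1 has 15 processed pseudogene rows, which held 0.981% to 3.08% of the summed counts, and adding them gave 0.76.

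HSPB1, a small heat shock protein that holds unfolded proteins and binds actin filaments, was at 47.9 and 134 CPM with the empty vector and at 153, 127 and 150 CPM under the TAF1C label. The higher control library lay among those labelled TAF1C, so the groups overlapped (log2 fold change 0.65 ± 0.42 (SE), edgeR adjusted p = 0.259). Against replicate 1 alone the value was 1.55, and against replicate 2 alone 0.03.

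The members differed in how far the choice of control library moved them. Against replicate 1 alone, 7 of the 8 tested members were raised and HSPA6 was lowered, where 35.8% of all genes tested were raised and 34.0% lowered. Against replicate 2 alone, 7 were raised, HSPA6 among them and HSPB1 not, beside 29.0% of all genes raised and 29.5% lowered. Both fits take their spread from the libraries labelled TAF1C and use the same 3 of them. Without TAF1C replicate 1, 2 or 3, HSPH1 and BAG3 alone were raised, beside 5.84%, 6.48% and 5.94% of all genes.

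**Figure D3:**
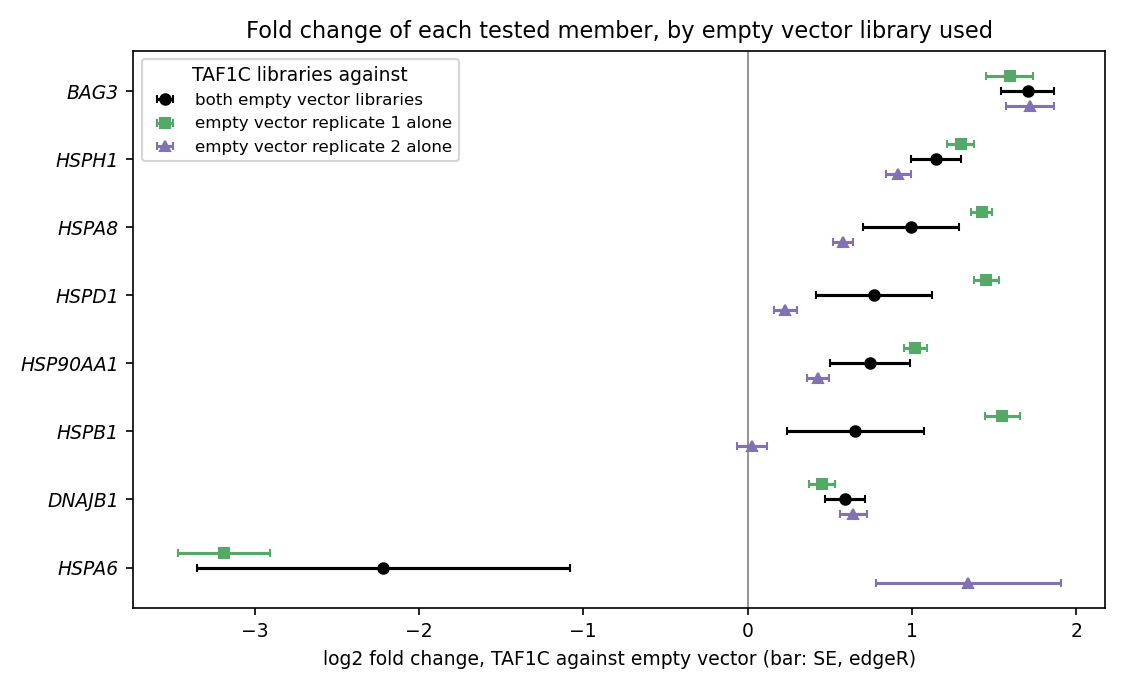
Log2 fold change of each tested member, TAF1C-labelled against control libraries (points, with bars for SE from edgeR), with both controls and with each alone. With each control alone, the bars take their spread from the libraries labelled TAF1C only. BAG3 stays between 1.59 and 1.72, whereas HSPA6 runs from -3.19 to 1.34 and HSPB1 from 0.03 to 1.55.

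The heat shock factors did not move together. HSF1, the main activator of the heat shock response, was at 65.2 and 70.7 CPM in the controls and at 118, 99.0 and 115 CPM in the libraries labelled TAF1C and rose (log2 fold change 0.71 ± 0.13 (SE), edgeR adjusted p = 0.00953). HSF2, a partner of HSF1 also active in development, fell from 34.1 and 35.1 CPM to 21.0, 24.0 and 20.8 CPM (log2 fold change -0.66 ± 0.13 (SE), edgeR adjusted p = 0.0140). HSF4, the factor of the lens, was at 21.3 and 7.997 CPM and at 3.36, 3.03 and 2.47 CPM and fell as well (log2 fold change -2.31 ± 0.44 (SE), edgeR adjusted p = 0.0116). The list held 5 tested genes, with 1 raised and 2 lowered. As few as 0 were raised and 0 lowered when a library labelled TAF1C was dropped. HSF1 activity was not measured.

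Other chaperone genes were taken from lists drawn up by function. Over all lists, each gene counted once, 38 of 96 tested genes rose and 8 were lowered, of which DNAJC12, HSPB7 and HSPB8 reached the filter only through the controls, with a median log2 fold change of 0.50, where 15.9% of all tested genes were raised and 22.6% lowered. Raised list genes numbered 8, 8 and 9 without TAF1C replicate 1, 2 or 3, beside 5.84%, 6.48% and 5.94% of all genes. The share of all genes raised in the full comparison, 15.9%, is also the background of each list count below. Of the list genes that follow the naming rule, FKBP5, HSPA5, HSPBP1, CLPB, SERPINH1 and DNAJC6 passed in each fit with a library labelled TAF1C dropped. DNAJA1 lost its call without TAF1C replicate 2, HSF1 and HSF2 lost theirs without TAF1C replicate 1 or 3, and the others that passed, TRAP1, HSPA4, HSPA9, HSPA12A, HSF4, DNAJA3, DNAJB2, GRPEL1, CCT5 and PFDN4, lost theirs whenever a library labelled TAF1C was left out. HSP90 and its co-chaperones had 11 of 17 genes raised and 0 lowered (median 0.79), and as few as 3 raised with a library labelled TAF1C left out. The median was 0.52 without control replicate 1 and 1.03 without replicate 2. FKBP5, a glucocorticoid receptor co-chaperone, was at 227 and 239 CPM and at 610, 646 and 608 CPM (log2 fold change 1.41 ± 0.13 (SE), edgeR adjusted p = 0.00126). On the log2 scale, TRAP1, the mitochondrial HSP90, rose by 1.13 ± 0.25 (SE) and STIP1, which passes clients from HSP70 to HSP90, by 1.04 ± 0.20 (SE).

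Of the other HSP70 genes 3 of 10 rose and 1 fell (as few as 1 raised and 0 lowered with a library labelled TAF1C dropped). Their median was 0.12, but -0.060 without control replicate 1 and 0.27 without replicate 2. HSPA5, the HSP70 of the endoplasmic reticulum, rose by 1.24 ± 0.19 (SE, log2), from 348 and 475 CPM to 960, 990 and 973 CPM. HSPA9, the HSP70 of mitochondria, and HSPA4, an HSP110 relative of HSPH1, rose by log2 values of 0.91 ± 0.21 (SE) and 0.84 ± 0.20 (SE). HSPA4L, another relative, was at 116 and 101 CPM and at 103, 107 and 98.2 CPM, with no call. HSPA12A, a distant relative, was at 7.77 and 54.8 CPM and at 1.60, 1.76 and 1.55 CPM and was the lowered gene. Among 22 other J proteins 8 rose and 3 were lowered, with DNAJC12 tested only through its control values (median 0.37). As few as 0 were raised, and as few as 1 lowered, with a library labelled TAF1C left out. DNAJA1, a major cytosolic partner of HSPA8, rose by 1.07 ± 0.19 (SE, log2), from 208 and 299 CPM to 527, 553 and 515 CPM. DNAJA3, a mitochondrial J protein, rose by a log2 value of 0.84 ± 0.20 (SE). DNAJC6, the neuronal auxilin, fell (log2 fold change -2.68 ± 0.29 (SE)), as did DNAJB2, a J protein rich in neurons (-0.82 ± 0.17 (SE)). Both were higher in the controls, as was the sum of the photoreceptor markers, and a link between them was not tested.

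Of 8 other exchange factors 3 rose (median 0.53): GRPEL1 of mitochondria by 1.11 ± 0.24 (SE, log2), HSPBP1 by 1.02 ± 0.14 (SE) and BAG2, named beside the rule for its place in this count, by 0.67. As few as 1 was raised with a library labelled TAF1C left out. In the mitochondrial folding and protease list 4 of 10 rose and 0 fell (median 0.68), CLPB, a disaggregase, by a log2 value of 0.996 ± 0.12 (SE). As few as 1 of that list was raised with a library labelled TAF1C left out, and its median was 0.29 without control replicate 1. The cytosolic chaperonin and prefoldin list had 5 of 13 raised and 0 lowered (median 0.65), and as few as 0 raised with a library labelled TAF1C left out. Its median was 0.25 without control replicate 1 and 1.13 without replicate 2. CCT5, a subunit of the chaperonin that folds actin and tubulin, rose from 221 and 363 CPM to 568, 607 and 576 CPM, and PFDN4, a prefoldin subunit, rose by 0.97 ± 0.22 (SE) on the log2 scale.

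Of 9 other small heat shock protein genes 4 were tested. HSPB11, a small protein of the ciliary transport machinery, was at 33.1 and 34.7 CPM in the controls. It was at 40.8, 43.1 and 36.2 CPM under the TAF1C label and did not pass (edgeR adjusted p = 0.192). HSPB8, which works with BAG3, was at 3.20 and 2.95 CPM and at 0.485, 0.265 and 0.495 CPM. HSPB7 was at 2.97 and 1.46 CPM and at 0.456, 0.706 and 0.557 CPM. Both were called lowered, but they reached the filter only through the controls, where they are high, so the call supports no direction for them. Neither was tested once a control library was left out.

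The other HSF1 targets had 7 of 15 raised and 0 lowered (median 0.71, and 0.33 without control replicate 1). As few as 1 was raised with a library labelled TAF1C left out. SERPINH1, the collagen chaperone of the endoplasmic reticulum, had the largest log2 fold change of the list genes and members that rose, from 77.2 and 106 CPM to 348, 318 and 341 CPM (log2 fold change 1.87 ± 0.18 (SE), edgeR adjusted p = 0.00133). Other genes of that list did not pass: CHORDC1, an HSP90 co-chaperone, was at 78.3 and 80.1 CPM and at 84.5, 102 and 86.0 CPM, and ZFAND2A, a stress-induced zinc finger protein, was at 10.3 and 14.0 CPM and at 11.6, 12.9 and 13.02 CPM. DNAJB4, a J protein, was at 23.6 and 28.6 CPM and at 33.8, 35.9 and 31.5 CPM (edgeR adjusted p = 0.0966).

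**Figure D4:**
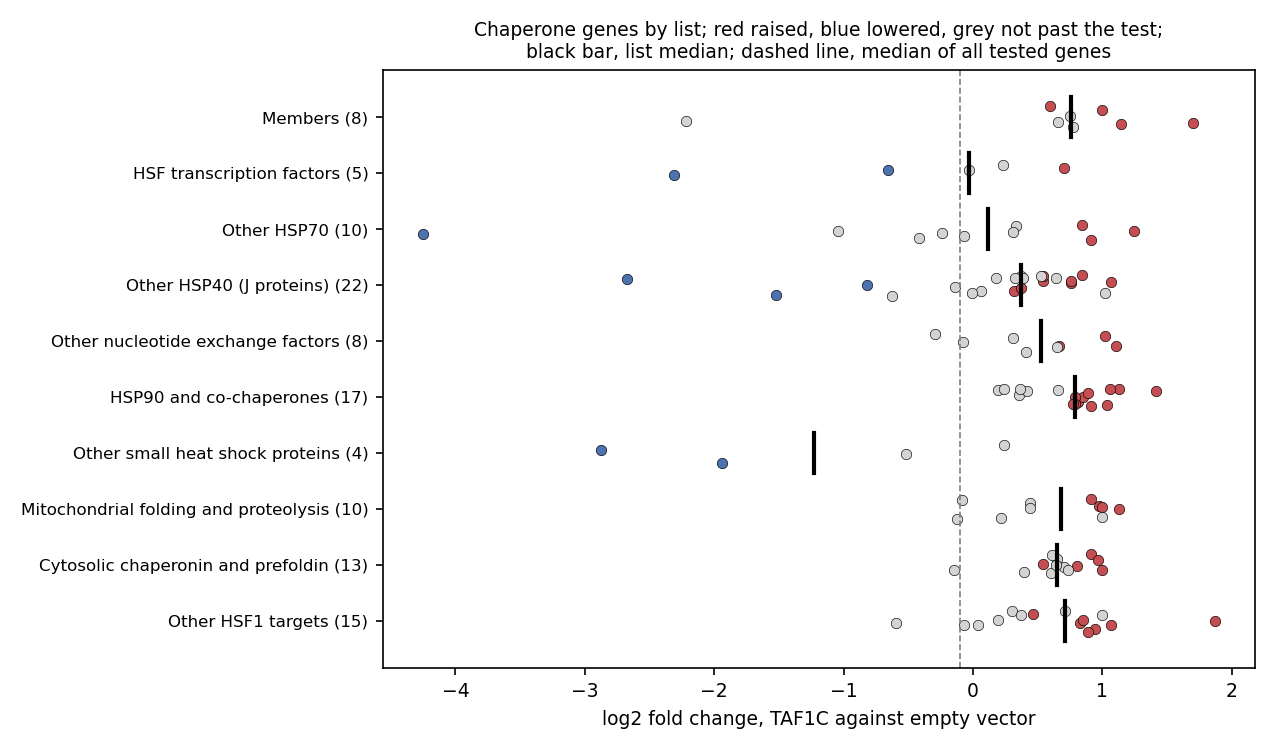
Log2 fold change (TAF1C-labelled against control libraries) of each tested gene of the members and of 9 chaperone lists; red points were raised, blue lowered and grey not past the test, black bars are list medians and the dashed line is the median of all tested genes (-0.10). The HSP90 list has 11 of 17 genes raised. The 2 blue points of the small heat shock proteins, HSPB7 and HSPB8, reached the test only through the controls.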

How the data were processed

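Long RNA came from a mirVana isolation and, after ribosomal depletion, NEBNext Ultra libraries, per the labels' protocols. The submitters' processing notes name the build hg19 and, with no role for each, DESeq2, HISAT2, Cufflinks 2.2.1, Bowtie2 2.2.4 and Trimmomatic 0.36; the annotation, strand and treatment of reads that match several places are not given in the sources used here. The authors deposited raw counts for 57773 Ensembl genes. Symbols on several rows (236 of 55771) were summed. Counts were tested with edgeR 4.0.16 (quasi-likelihood, TMM, no covariate, genes reaching 1 CPM in 2 or more libraries) in R 4.3.3, with Benjamini-Hochberg adjustment, two-sided, over all tested genes. Alternatives were library totals, quantile normalization and voom with limma 3.58.1, DESeq2 1.42.0, no filter, filterByExpr, a replicate block, each library left out, near-identical copies summed, and pseudogenes summed. On simulated counts (18402 genes), with a spread per gene estimated over all 5 libraries, 23 of 100 genes changed by 1 on the log2 scale were recovered and 81 of 100 changed by 2. Both groups had the same spread there, whereas in the data the controls lay further apart (SD of log2 differences 1.08) than libraries labelled TAF1C (0.383 to 0.416). No other genes were changed there, whereas 2922 were raised and 4158 lowered in the data. The adjusted threshold is stricter when few genes change, so these shares do not give the recovery in the data. With 2 against 3 libraries, small changes can still be missed.

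The members and lists were chosen with earlier results of these data known. The text names the 10 members, TAF1C, genes paired with a member by role, up to 2 raised and 2 lowered genes per list of at least 5 CPM, and the 3 genes nearest to DNAJB1; likeness to HSPA1A was not computed, as it was not tested. STIP1, BAG2, CHORDC1, ZFAND2A, DNAJC12, HSPB7, HSPB8, HSPB11, SNORD14E, BAG6, PFDN6 and the chromosome 6 examples were named after their values were seen. Gene order came from RefSeq of GRCh38.p14, matched by symbol or synonym for 989 of 1049 protein-coding genes of chromosome 6. Transcript lengths were not used here, so levels of different genes are not compared. The small RNA tables were not used here. In bulk samples, fewer cells of a type and less RNA per cell cannot be told apart.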

Additional observations from a re-analysis of the deposited data

How the results depend on the processing

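Of the members, HSPH1 and BAG3 kept their call under every alternative that held both controls. Among these, summing copies or pseudogenes left the counts of both genes unchanged and was no separate check of them. HSPA8 lost it under 6 of the 14 alternatives and DNAJB1 under 7. With both controls, HSP90AA1 passed with library totals, DESeq2 and voom. Causes were not tested. With no filter, 2 members, 23 list genes and 1817 of all genes were raised, and 5 list genes were lowered. With filterByExpr 19 list genes were raised. Over the fits with 1 library left out, raised genes numbered 2 to 7 (members), 8 to 69 (lists) and 1058 to 5967 (all genes), and lowered genes 0 to 1, 2 to 14 and 1960 to 5665. The share of higher genes among all changed genes was 41.3%, but 31.1% with library totals, 59.6% with quantile normalization and 29.7% with no filter, and the median of all genes moved from -0.10 to -0.33, 0.22 and -0.26. Replicate numbers are shared between groups, but no label says that they pair libraries, and same-numbered libraries correlated at 0.04 and 0.14 in their deviations from the group means. With the replicate block, 2 members, 21 list genes and 1425 of all genes were raised, and 4 list genes and 2662 of all genes were lowered.

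Directions turned without control replicate 1 for HSPA6 (leaving out 1 library gave -3.19 to 1.34), HSPA2 (-0.84 to 0.64) and HSP90AB1 (-0.12 to 0.89), with quantile normalization for HSPA2 (0.37) and HSP90AB1 (-0.14), and for HSPA4L (0.035) with no filter; the median of the other HSP70 genes turned to -0.060 without control replicate 1. Counts limit HSPA1A, HSPA1B and, outside control replicate 1, HSPA6.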
